A study of Homo sapiens with 6 samples.

Results

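Histone genes were examined in SW480, a human colorectal cancer cell line, 48 h after transfection with an siRNA against ZEB1 (siZEB1) or a control siRNA (siNC). ZEB1 is a zinc finger transcription factor of the epithelial-mesenchymal transition. Each group held 3 cultures of the same cell line, recorded as wild type (WT) for siNC and as ZEB1 knockdown for siZEB1, and no other difference between the groups is recorded. The number of different siRNA sequences behind each label was not given in the sources used here. The members were the rows of the count tables whose symbol follows the naming of histone genes. Of 32029 genes listed, 78 whose symbols met the patterns were used, 13 of them were left out as names of pseudogenes, and 65 members remained. Among those left out by name, H2AP is annotated as protein coding in GENCODE 29. It had 1 read over all cultures.

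Histones are the proteins that package DNA. The core histones H2A, H2B, H3 and H4 form the nucleosome, and the linker histone H1 binds the DNA between nucleosomes. Most histone genes lie in clusters, are read mainly in S phase, and give short RNAs that end just behind a stem-loop in place of a poly(A) tail. Variant histones, such as H2A.Z, come from single genes outside these clusters, are made throughout the cell cycle, mostly as ordinary polyadenylated RNA, and replace the core histones at particular places in chromatin.

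By present symbol, 57 members were clustered histone genes (6 for H1, 13 for H2A, 15 for H2B, 11 for H3 and 12 for H4), 6 were variants and 2 were non-coding RNAs named after a histone gene. The present symbols do not follow the map in every case. H1-10 and H1-7 carry the H1 naming but lie outside the clusters, and H2AW was formerly HIST3H2A, a gene of the small HIST3 cluster. By former symbol, 56 members were clustered and 7 were variants. The HIST1 cluster held 43 members on chromosome 6 between positions 26020490 and 27893843 (GRCh38), and the HIST2 cluster held 11 on chromosome 1 between 149782689 and 149887916. A further 8 histone genes were reached only through their former symbols, among them H3-3A and H3-3B, and are described apart from the members.

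The counts of the 6 cultures summed to between 19040636 and 22357633 reads. Pairs of cultures within a group had chi-square values of 2.18 to 8.58 times their degrees of freedom, where sampling noise alone gives a value near 1, and the pairs with siNC replicate 3 were the 2 highest of siNC. ZEB1 itself fell from 54.2 ± 6.24 to 7.51 ± 0.843 CPM (SD, n = 3), where CPM is the read count brought to an equal library size by TMM factors. Of the colorectal markers, the keratin gene KRT8 stood at 3455 CPM and CDX2 at 103 CPM in siNC, KRT20 (0.482) and CDH17 (0.0841) were near 0 and CEACAM5 was at 0. Of 8 such markers tested, 3 were higher with siZEB1 (EPCAM, KRT19 and VIL1) and 2 were lower (CDX2 and LGR5). These counts stand beside 19.0% higher and 21.2% lower over all genes tested. The leukocyte markers summed to 0.988 to 1.41 CPM per culture and the endothelial markers to 1.54 to 2.72 CPM. Fibroblast markers summed to 13.3 to 15.3 CPM, mostly COL1A1, while LUM was at 0 in siNC. PTPRC and DCN were not among the rows used here.

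The clustered histone genes were seen at low depth. They took 0.0110% to 0.0118% of all reads in the siNC cultures and 0.0151% to 0.0153% in the siZEB1 cultures, counted by former symbol. Of their 15832 reads over the 6 cultures, 63.7% fell on 5 genes, H2BC12, H2AC6, H2AW, H1-2 and H2BC5. In the HIST1 cluster, 13 of 43 genes had at least 100 reads over all cultures. H2AC7 and H4C13 had 1 read, H3C14 and H3C15 had 2, and H4C1 had 3, so that these 5 genes were at or under the 3 reads that a count of 0 allows. The way RNA was selected for the libraries was not given in the sources used here, and its part in these levels was not tested.

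**Figure D1:**
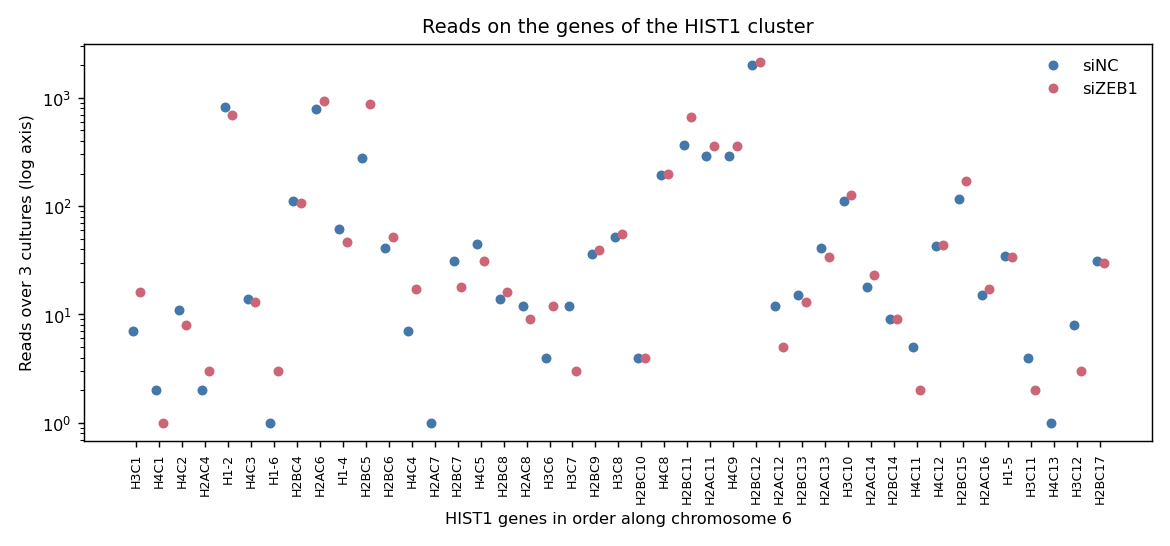
Reads per gene summed over the 3 cultures of each group (log axis) for the 43 HIST1 genes in their order along chromosome 6; H2AC7 and H4C13 had 0 reads with siZEB1, which a log axis cannot show. H2BC12 has the most reads in both groups, and the widest gap among the well read genes is at H2BC5, with more reads in siZEB1.

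The RNA ends that the annotation gives differ among these genes. A histone stem-loop is a run of 16 bases whose first 6 bases pair with its last 6 around a loop of 4 bases. The search took the opening GGC, a loop of TTT and any base, and pairing that allows G with U. By this search, 104 of 19684 protein-coding genes of GENCODE 29 (0.528%) held the stem-loop in a coding transcript. Of the 104, 32 were members or genes reached only through a former symbol. Histone genes that are not among these rows were not counted in the 32. The stem-loops of the 5 clustered genes that hold it and passed the test between siZEB1 and siNC are shown beside that of H2AX, with the stem and loop in capitals and up to 7 bases on each side.
H2BC5: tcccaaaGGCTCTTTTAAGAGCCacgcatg
H2AC6: acccaaaGGCTCTTTTCAGAGCCcccctac
H2BC21: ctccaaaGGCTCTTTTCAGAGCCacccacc
H2AW: acataaaGGCTCTTTTCAGAGCCacctact
H4C9: ctaaaaaGGCCCTTTTTAGGGCCcctaagc
H2AX: ccacaaaGGCCCTTTTAAGGGCCaccaccg
H2AX, a variant, thus also carries the element. Of the 56 genes clustered by former symbol, 20 had an annotated transcript that runs at least 100 bases past the stem-loop, 8 had transcripts that end near it, 27 had none in their annotated transcripts, and H3C2 had no entry in GENCODE 29. Among the genes with a transcript that runs on, 14 of 20 passed the filter on low counts, against 2 of 8 that end near it and 5 of 27 without it. A transcript that runs on also has more annotated bases on which reads can be counted. The part of annotated length in these numbers was not tested. The limit of 100 bases was chosen after the annotation was seen, and several annotations stop at the end of the coding sequence, so that a missing stem-loop there is not evidence that the RNA lacks it.

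Knockdown of ZEB1 was followed by a fall of H2AZ1 and by rises of a small number of clustered genes, led by H2BC5 and H2BC11. After the filter on low counts, 27 members could be tested together with all 14996 genes by edgeR's quasi-likelihood test, and 38 could not. At an adjusted p under 0.05, 9 members were higher with siZEB1 and 1 was lower. Over all genes tested, 19.0% were higher and 21.2% lower, 40.2% in all, and the 10 of 27 members called come close to that share. The siNC and siZEB1 cultures did not overlap for 12 of the 27 members tested, beside 49.5% of all genes tested. The median log2 fold change was 0.26 over the members tested and -0.01 over all genes tested. In these bulk samples, fewer cells with a transcript and less RNA per cell cannot be told apart.

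**Figure D2:**
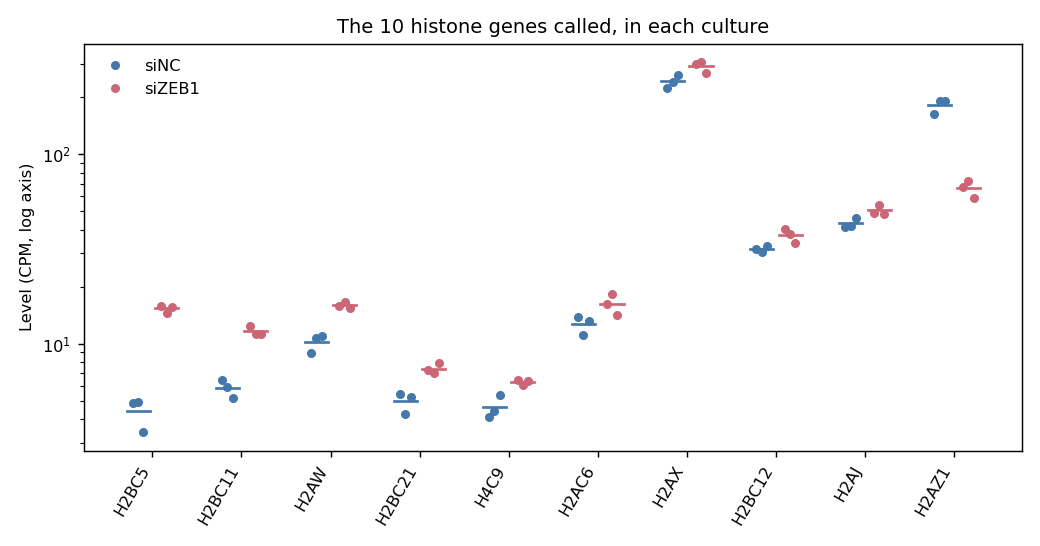
Level in CPM (log axis) of the 10 histone genes called, with a point for each of the 3 cultures per group and a line at the group mean. The siNC and siZEB1 points do not overlap for any of the 10 genes; H2AZ1 is the gene with siZEB1 below siNC.

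Among the variants, H2AZ1 changed most. H2AZ1 (chromosome 4 from 99948086 to 99950388, minus strand) encodes H2A.Z, the variant found at the nucleosomes that flank gene starts. It was at 164, 191 and 191 CPM in the siNC cultures and at 66.9, 72.4 and 58.7 CPM in the siZEB1 cultures. The lowest siNC culture lay far above the highest siZEB1 culture. On the log2 scale siZEB1 differed from siNC by -1.46 (SE 0.08, adjusted p = 5.67e-10), which leaves 0.363 of the siNC level. Exons on the opposite strand overlap 9.7% of its exonic bases. The antisense partner H2AZ1-DT had 42 reads over all 6 cultures, against 15208 on H2AZ1.

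The second H2A.Z gene, H2AZ2, did not pass the test. Its levels were 241, 220 and 227 CPM with siNC and 230, 234 and 235 CPM with siZEB1, and the groups overlapped. The log2 fold change was 0.02, with a 95% interval from -0.10 to 0.14 (adjusted p = 0.786). Per length of the annotated exons, H2AZ1 stood at 1.40, 1.79 and 1.74 times H2AZ2 in the siNC cultures and at 0.600, 0.638 and 0.516 times H2AZ2 in the siZEB1 cultures. On this scale H2AZ1 was above H2AZ2 in every siNC culture and below it in every siZEB1 culture. The order in siNC rests on the annotated lengths (2303 bases for H2AZ1 and 4749 for H2AZ2), since in CPM H2AZ1 was below H2AZ2 in all 6 cultures.

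The promoters of histone genes share several short elements. The 120 bases before the RefSeq start (GRCh38.p14) are given for H2AZ1 (chr4:99950276-99950395, minus strand), H2BC5 (chr6:26158001-26158120, plus strand) and H2BC11 (chr6:27132796-27132915, minus strand), the genes with the largest changes. Capitals mark the CCAAT box (CCAAT or ATTGG), the TATA box (TATAAA or TTTATA) and the octamer of H2B promoters (ATTTGCAT or ATGCAAAT), searched on both strands.
H2AZ1: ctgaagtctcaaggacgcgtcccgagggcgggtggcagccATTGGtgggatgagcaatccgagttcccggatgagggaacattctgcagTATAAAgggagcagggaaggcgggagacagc
H2BC5: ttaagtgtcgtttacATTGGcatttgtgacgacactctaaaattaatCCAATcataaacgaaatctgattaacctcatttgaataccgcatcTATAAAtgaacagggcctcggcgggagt
H2BC11: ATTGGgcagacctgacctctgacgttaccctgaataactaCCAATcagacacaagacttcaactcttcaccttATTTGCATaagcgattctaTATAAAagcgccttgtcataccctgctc
The 3 windows share the CCAAT box and the TATA box, and of the 3 only H2BC11 holds the octamer. Over the 250 bases before the start, a CCAAT box was found for 54 of 66 histone genes with an entry (81.8%, against 32.0% of 35116 promoters), a TATA box for 41 (62.1%, against 10.7%) and the octamer for 22 (33.3%, against 1.63%). The octamer was found for 12 of 16 clustered H2B genes and for 9 of 13 clustered H2A genes, and for no clustered H1, H3 or H4 gene. The E-box CAGGTG (or CACCTG), a motif known to bind ZEB1, was found for 4 of the 66 (6.06%, against 17.5%), namely H1-7, H2AB3, H2BC10 and H3-4. None of these 4 passed the filter on low counts. Only this form of the motif was searched, and only in the 250 bases before the start. Binding of ZEB1 to histone genes was not tested here.

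The other variants moved less than H2AZ1. H2AX, whose product is phosphorylated at DNA double-strand breaks, was at 224, 242 and 262 CPM with siNC and at 301, 305 and 267 CPM with siZEB1. The nearest cultures of the groups lay close to each other without overlap, and the log2 fold change was 0.26 (SE 0.07, adjusted p = 0.00578). H2AJ, an H2A variant gene on chromosome 12, was at 41.3, 41.9 and 46.1 CPM with siNC and at 49.1, 54.1 and 48.4 CPM with siZEB1. The log2 fold change came to 0.23 (SE 0.08, adjusted p = 0.0220). This call is lost without siNC replicate 1, siNC replicate 2 or siZEB1 replicate 2 and with the replicate number as a block, where the adjusted p reaches at most 0.128. H2AW, the HIST3 gene, rose more, from 8.94, 10.7 and 11.0 CPM to 15.8, 16.6 and 15.4 CPM. Every siZEB1 culture was above every siNC culture, and the log2 fold change was 0.64 (SE 0.10, adjusted p = 1.10e-04). H2AB3, a testis-type H2A variant on the X chromosome, had 3 reads in all and was not tested. By present symbol, 3 of 5 variants tested were thus higher and 1 was lower, beside 19.0% and 21.2% of all genes.

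**Figure D3:**
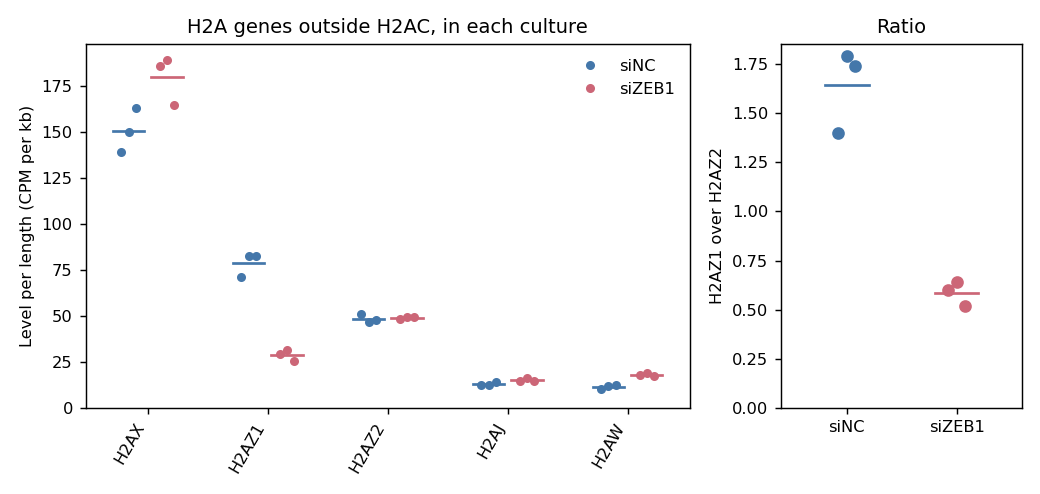
Left, level per length (CPM per kb of annotated exons) of the 5 H2A genes with a variant symbol that were tested, with a point per culture and a line at the group mean. Right, the ratio of H2AZ1 to H2AZ2 per culture, between 1.40 and 1.79 with siNC and between 0.516 and 0.638 with siZEB1.

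The linker histone genes H1-10 and H1-2 did not pass the test over all cultures. H1-10, a linker histone gene outside the clusters, was at 18.6 to 24.5 CPM with siNC and at 22.4 to 29.6 CPM with siZEB1. The groups overlapped, and the log2 fold change was 0.26 (SE 0.11, adjusted p = 0.0781). H1-10 was called without siNC replicate 3 (adjusted p = 0.00865) or siZEB1 replicate 3 (adjusted p = 0.0160), both with a log2 fold change of 0.35. Exons on the opposite strand overlap 22.9% of its exonic bases. The clustered linker histone gene H1-2 was at 13.1 ± 1.01 CPM with siNC and 12.2 ± 1.09 CPM with siZEB1 (SD, n = 3), with a log2 fold change of -0.10 and a 95% interval from -0.33 to 0.12.

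The largest rise among all members was that of H2BC5 (chromosome 6 from 26158146 to 26171349), a core H2B gene. Its reads numbered 103, 110 and 66 with siNC and 299, 280 and 300 with siZEB1. These are 4.84, 4.91 and 3.42 CPM against 15.8, 14.6 and 15.7 CPM. The siZEB1 cultures lay close together and far above the siNC cultures. The log2 fold change was 1.80 (SE 0.13, 95% interval from 1.52 to 2.07, adjusted p = 1.28e-08), a 3.47-fold rise. GENCODE 29 gives this gene a transcript of 496 bases that ends 39 bases past the stem-loop shown above, and a transcript of 789 bases without it. The counts are per gene and do not separate the transcripts.

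H2BC11 (chromosome 6 from 27125897 to 27132750), another H2B gene, was at 6.44, 5.89 and 5.14 CPM with siNC and at 12.4, 11.2 and 11.3 CPM with siZEB1. The groups were well apart, and the log2 fold change was 0.99 (SE 0.12, adjusted p = 4.65e-06), a 1.99-fold rise. H2BC21, the H2B gene of the HIST2 cluster that is known to give polyadenylated RNA, rose from 5.46, 4.24 and 5.24 CPM to 7.26, 7.02 and 7.89 CPM. The log2 fold change was 0.57 (SE 0.14, adjusted p = 0.00307). H2BC12, the gene with the most reads in the clusters, was at 31.8, 30.4 and 32.9 CPM with siNC and at 40.2, 37.9 and 34.1 CPM with siZEB1. The groups did not overlap, but siZEB1 replicate 3 was near the siNC cultures, and the log2 fold change was only 0.24 (SE 0.08, adjusted p = 0.0256).

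Outside H2B, 2 genes of the clusters with a present clustered symbol were called. H2AC6, an H2A gene, was at 13.8, 11.1 and 13.2 CPM with siNC and at 16.3, 18.2 and 14.1 CPM with siZEB1, and the log2 fold change was 0.35 (SE 0.11, adjusted p = 0.0201). H4C9, a gene for H4, was at 4.09, 4.42 and 5.34 CPM with siNC and at 6.46, 6.03 and 6.32 CPM with siZEB1, and the log2 fold change was 0.45 (SE 0.14, adjusted p = 0.0192). In both genes the nearest cultures of the groups were close. The calls of H2AC6, H2BC12 and H4C9 each depend on the cultures used. H2AC6 and H2BC12 lose it without siNC replicate 2, siZEB1 replicate 1 or siZEB1 replicate 2 (largest adjusted p 0.119 and 0.151), and H4C9 without siNC replicate 1, siNC replicate 2 or siZEB1 replicate 1 (largest adjusted p 0.0786). With the replicate number as a block, H2BC12 is also lost (adjusted p = 0.0789).

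**Figure D4:**
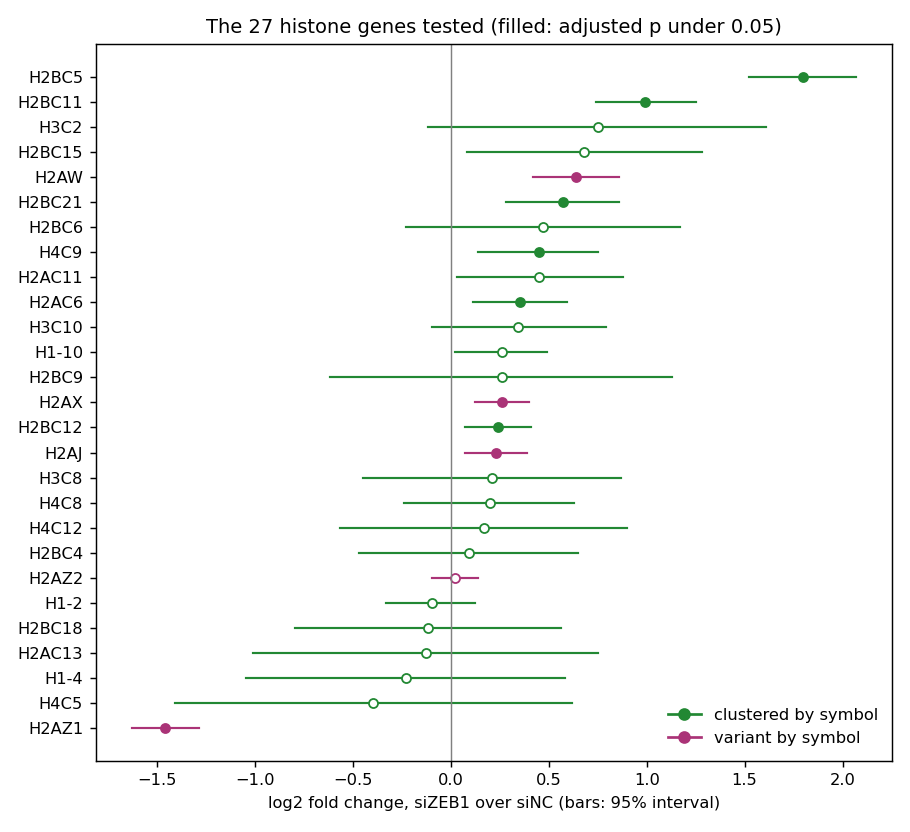
Log2 fold change of siZEB1 over siNC with its 95% interval for the 27 histone genes tested, coloured by the class of the present symbol; filled points passed an adjusted p under 0.05. H2BC5 (1.80) and H2AZ1 (-1.46) lie at the ends, and the wide intervals belong to genes near 1 CPM.

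In all, 22 genes clustered by symbol were tested, of which 6 were higher, 0 were lower and 16 were not called. The count of 0 lower held with DESeq2, and no clustered gene that was tested had a negative log2 fold change with an unadjusted p under 0.05 in edgeR. By former symbol, which adds H2AW and leaves out H1-10, 22 were tested and 7 were higher. By family, 4 of 9 H2B genes tested were higher, 1 of 3 H2A genes, 1 of 4 H4 genes, 0 of the 3 H1 members and 0 of 3 H3 genes. The share of genes higher was 27.3% over the clustered genes tested, beside 19.0% over all genes. Of the 7 clustered genes listed as known to give polyadenylated RNA also (H1-2, H2AC6, H2BC4, H2BC5, H2BC11, H2BC12 and H2BC21), all 7 passed the filter and 5 were higher. Without siNC replicate 2, the 6 clustered genes called fell to 3.

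Of the 16 clustered genes tested and not called, 11 had a positive and 5 a negative log2 fold change. H2BC15, an H2B gene, had the largest positive value among those over 1 CPM, 0.68 with a 95% interval from 0.08 to 1.28 (adjusted p = 0.0650). Its siNC cultures were at 2.68, 1.96 and 0.830 CPM and its siZEB1 cultures at 2.54, 3.12 and 3.24 CPM, and siNC replicate 3 was the lowest. Without that culture the log2 fold change was 0.35 (adjusted p = 0.225), and without siNC replicate 1 it was 1.05 and the gene was called (adjusted p = 0.00965). H2AC11 had a log2 fold change of 0.45 (95% interval from 0.03 to 0.88, adjusted p = 0.0825), with siZEB1 cultures at 4.29, 6.45 and 8.15 CPM that overlapped the siNC cultures at 5.41, 3.71 and 4.72 CPM. H2AC11 was called without siNC replicate 1 (adjusted p = 0.0459) or siZEB1 replicate 1 (adjusted p = 0.0104). H3C10, the clustered H3 gene with the most reads, was at 1.76 ± 0.188 CPM with siNC and 2.24 ± 0.0476 CPM with siZEB1 (SD, n = 3). Its log2 fold change was 0.34, with a 95% interval from -0.10 to 0.79. At the low end, H4C5 had -0.40 with an interval from -1.41 to 0.62 and H1-4 had -0.23 with an interval from -1.05 to 0.58. The remaining log2 fold changes, of H2AC13, H2BC4, H2BC6, H2BC9, H2BC18, H3C2, H3C8, H4C8 and H4C12, lay between -0.13 and 0.75, all with intervals that include 0. The same intervals also include 0.24, the log2 fold change of H2BC12, so a change of that size was not excluded in these genes.

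Many H2A and H2B genes lie head to head and share a promoter region. Of the histone genes, 10 pairs have starts within 500 bases of each other. In 3 pairs both genes were tested. H2BC11 and H2AC11, whose starts are 291 bases apart, had log2 fold changes of 0.99 and 0.45. H2AC6 and H2BC4, 218 bases apart, had 0.35 and 0.09. H2AW and H2BU1, 233 bases apart, had 0.64 and 0.25. In each pair 1 gene passed the test, and the difference within a pair was not tested.

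The summed levels put both classes side by side. Per length of annotated exons, the 56 genes clustered by former symbol summed to 167, 162 and 163 CPM per kb with siNC and to 215, 212 and 202 CPM per kb with siZEB1, a ratio of 1.28 between the group means. H2BC12 alone made up 48.5% of this sum. Its annotated exons span 381 bases, and whether the reads were counted over the same exons was not given in the sources used here. The 7 members outside the clusters summed to 305 ± 18.8 CPM per kb with siNC and to 290 ± 18.4 CPM per kb with siZEB1 (SD, n = 3), and the groups overlapped. Without H2AZ1 the same sum was 226 ± 13.2 with siNC and 262 ± 15.5 with siZEB1, and the groups did not overlap. This sum thus held a fall of H2AZ1 and a rise of H2AX. H3C2, which has no annotated length here, does not enter these sums, and a sum over chosen genes has no p.

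**Figure D5:**
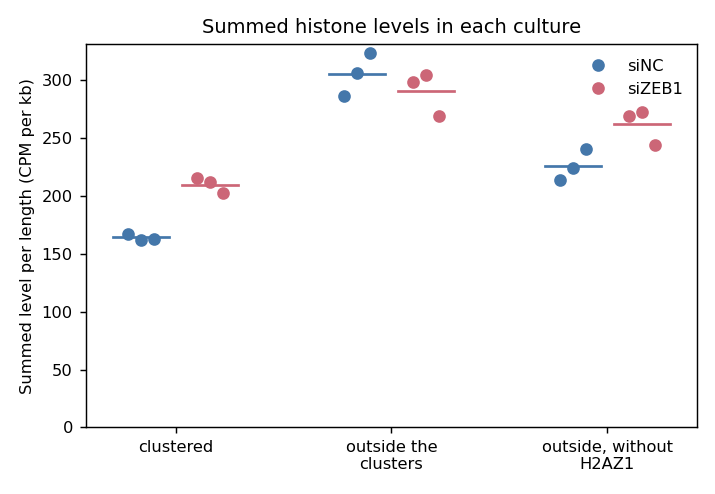
Summed level per length (CPM per kb of annotated exons) of the histone genes clustered by former symbol, of those outside the clusters, and of the latter without H2AZ1, with a point per culture and a line at the group mean. The siZEB1 cultures lie above the siNC cultures in the first and the last group and overlap them in the middle group.

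With the split by present symbol, the clustered sum was 167 ± 2.28 CPM per kb with siNC and 209 ± 8.96 with siZEB1 (SD, n = 3). The variant sum was 302 ± 18.1 with siNC and 291 ± 17.2 with siZEB1 (SD, n = 3). The ratio of clustered to variant genes was 0.599, 0.543 and 0.524 in the siNC cultures and 0.734, 0.690 and 0.734 in the siZEB1 cultures. Without H2AZ1 in the variant sum, this ratio was 0.751 ± 0.0463 with siNC and 0.798 ± 0.0245 with siZEB1 (SD, n = 3), and the groups overlapped.

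By level per length among the genes described here, H2AX (151 CPM per kb), the former-symbol gene H3-3B (138), H2BC12 (83.2), H2AZ1 (78.9), H3-3A (51.0) and H2AZ2 (48.3) stood highest in siNC. This order rests on the annotated lengths, such as 381 bases for H2BC12, 1614 for H2AX and 6134 for H3-3B. In siNC CPM, H3-3B (845) was above H2AX (243). On that scale MACROH2A1 (181) was near H2AZ1 (182) and far above H2BC12 (31.7). With siZEB1, H2AZ1 was at 28.7 CPM per kb, behind H3-3A and H2AZ2. H3-3A and H3-3B both encode the replacement histone of H3, which is laid down outside replication. H3-3A was at 160 ± 4.99 CPM with siNC and 186 ± 8.53 CPM with siZEB1 (SD, n = 3), which is 0.21 higher on the log2 scale (SE 0.06, adjusted p = 0.00869). H3-3B was at 845 ± 16.9 and 924 ± 19.5 CPM (SD, n = 3), which is 0.13 higher (SE 0.05, adjusted p = 0.0432). The genes for macroH2A, a large variant of silent chromatin, were not called, with log2 fold changes of 0.07 for MACROH2A1 and 0.12 for MACROH2A2. CENPA, which encodes the H3 variant of centromeres, rose from 46.2 ± 2.13 to 64.3 ± 2.29 CPM (SD, n = 3), 0.48 higher on the log2 scale (SE 0.07, adjusted p = 3.48e-05).

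Genes that make and end histone RNA were read next. NPAT, the coactivator of clustered histone genes, had a log2 fold change of -0.03 (adjusted p = 0.804), CASP8AP2, which works with it, 0.18 (adjusted p = 0.219), and SLBP, the protein that binds the stem-loop, -0.14 (adjusted p = 0.0736). Of the 19 genes of this list, 4 were higher (21.1%), 2 were lower (10.5%) and 13 were not called, beside 19.0% higher and 21.2% lower over all genes. CSTF2, a cleavage factor of both ordinary and histone RNA, fell from 114 ± 3.30 to 36.5 ± 2.01 CPM (SD, n = 3; log2 fold change -1.64, adjusted p = 1.31e-11). CCNE1, the cyclin whose kinase activates NPAT, fell by 1.04 on the log2 scale (adjusted p = 1.37e-07), while its partner CDK2 rose by 0.42 on that scale (adjusted p = 3.00e-04). CPSF2, a subunit of the cleavage complex, rose by 0.40 on the log2 scale (adjusted p = 1.24e-04).

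Histone chaperones carry histones to chromatin, and 16 of the 22 listed were called, 12 higher and 4 lower, beside 40.2% of all genes. ASF1B, a chaperone of H3 and H4, rose from 64.9 ± 2.92 to 107 ± 6.83 CPM (SD, n = 3; log2 fold change 0.72, adjusted p = 3.59e-07). SUPT16H, a subunit of the FACT complex, rose by 0.60 on the log2 scale (adjusted p = 1.94e-07). NAP1L4, a chaperone of H2A and H2B, fell from 224 ± 3.90 to 103 ± 2.54 CPM (SD, n = 3; log2 fold change -1.13, adjusted p = 2.09e-10), and CHAF1B, a subunit of the replication-coupled CAF-1, fell by 0.53 on the log2 scale (adjusted p = 1.63e-04). The chaperone of H2A.Z removal ANP32E rose, with a log2 fold change of 0.28 (adjusted p = 0.00697), as did VPS72, the H2A.Z subunit of deposition complexes, with 0.26 (adjusted p = 0.0159).

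Since clustered histone RNA follows S phase, cell cycle genes are given beside it. Of 24 S phase genes, 6 were higher, 2 were lower and 16 were not called, with a median log2 fold change of 0.05, beside 19.0% higher and 21.2% lower over all genes. PCNA, the sliding clamp of replication, rose by 0.50 on the log2 scale (adjusted p = 7.88e-07) and GINS1, of the replicative helicase, by 0.48 (adjusted p = 4.60e-05), while UHRF1, a reader of hemimethylated DNA, fell by 1.36 on the log2 scale (adjusted p = 1.31e-11) and POLA1, the catalytic subunit of DNA polymerase alpha, fell by 0.57 on the log2 scale (adjusted p = 3.30e-05). Of 20 G2/M genes tested, 11 were higher and 1 was lower, with a median of 0.17. BIRC5, an inhibitor of apoptosis of the chromosomal passenger complex, rose by 0.70 on the log2 scale (adjusted p = 1.04e-07), the mitotic kinase gene AURKB by 0.44 (adjusted p = 9.32e-05), and UBE2C, a ubiquitin-conjugating enzyme of mitosis, fell by 0.39 on the log2 scale (adjusted p = 6.07e-05). MKI67, the proliferation antigen, had -0.11 (adjusted p = 0.177). As a sign of how much RNA without a poly(A) tail entered the libraries, the 5 such RNAs found summed to 14.2, 11.3 and 4.56 CPM with siNC and to 9.53, 8.01 and 14.3 CPM with siZEB1. The groups overlapped, and siNC replicate 3 was the lowest. The part of the cell cycle and of library composition in the histone values was not tested.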

How the data were processed

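Counts of reads per Ensembl gene, deposited by the authors without normalization, were used for 6 cultures (siNC and siZEB1, 3 each). The submitters' processing notes name Trimmomatic, HISAT2, SAMtools, featureCounts and hg38; versions, the annotation, the strand setting and the treatment of reads with several matches were not given in the sources used here. Genes were kept by filterByExpr, normalized by TMM and tested with edgeR 4.0.16 (R 4.3.3) by the quasi-likelihood test (two-sided), and p-values were adjusted by Benjamini-Hochberg over all 14996 genes that passed. DESeq2 1.42.0 was an alternative. The fit was tested on simulated data. The SE is the log2 fold change over the root of F. Lengths, transcripts and positions come from GENCODE 29 (GRCh38), and promoters from RefSeq (66 of 73 histone genes matched).

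Members and lists were chosen with earlier results of these data known. A gene that meets the rule is not reported here and is in none of the member counts and sums. Named genes were ZEB1, each variant tested, each clustered gene called and the 15 next by CPM, up to 4 called genes per list, and SLBP, NPAT, CASP8AP2, CENPA, PCNA and MKI67. ANP32E, VPS72, H3C2, H2AP, RN7SL1, the pseudogenes, the former-symbol genes, the members under the filter and the markers were named after their values were seen. The labels number the cultures and do not say whether they were set up separately. The paper calls the samples biological replicates and the controls independent, without saying how the cultures were set up. The p-values thus measure only the spread between these cultures, part of which may be technical.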

Additional observations from a re-analysis of the deposited data

How the results depend on the processing

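H2AZ1, H2AW, H2AX, H2BC5, H2BC11 and H2BC21, 6 of the 10 genes called, kept their call and direction under all 12 alternatives run for each; H2AJ, H2AC6, H2BC12 and H4C9 kept their direction and lost the call under some, as given above. Over the 26 named genes, 276 values were on the same side, 14 lost a call, 9 gained one and 9 changed sign. The signs that changed belong to genes not called: H2AZ2 ranged from -0.01 to 0.06, H4C8 from -0.02 to 0.34, H2BC4 from -0.08 to 0.31, H2BC18 from -0.45 to 0.17, H1-4 from -0.80 to 0.05, H2BC9 from -0.01 to 0.51 and H2AC13 from -0.35 to 0.38 when a culture was left out. Leaving out each culture in turn gave 3 to 7 clustered genes higher and 6 to 11 members called, the lowest of both without siNC replicate 2. A fold above 1.5 with an unadjusted p under 0.05 gave 3 clustered genes and 1 variant higher, and 1081 genes higher and 1402 lower over all genes. Without the filter on low counts H1-10, H2AC11 and H2BC15 were also called. With the former-symbol genes added, 4 variants were higher, an alternative chosen after the data were seen. Without H2AZ1, chosen in the same way, the log2 ratio of the variant sum was 0.23 in place of -0.05, and that of clustered over variant sums 0.09 in place of 0.37. In CPM not divided by length, the log2 ratio of the clustered sum was 0.39 in place of 0.32, and that of clustered over variant sums 0.49. The replicate numbers were not found to pair the cultures: same-numbered cultures had correlations of deviations of -0.107, -0.147 and -0.339, and no culture correlated best with its own number. With the number as a replicate block, 9 members were called, 6 clustered genes and 2 variants higher, and 2289 genes higher and 2679 lower over all genes; H2BC15 gained a call, and H2AJ and H2BC12 lost theirs.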

Other observations

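The variant pseudogene H2AZ2P1, left out of the members by its name, had 13, 14 and 10 reads in the siNC cultures and 26, 30 and 20 in the siZEB1 cultures, 1.17 higher on the log2 scale (SE 0.32, adjusted p = 0.00697 in edgeR). The pseudogenes H2BC19P and H2BC20P had log2 fold changes of 0.47 (adjusted p = 0.159) and -0.02 (adjusted p = 0.947).

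The values of genes with near-identical copies are uncertain, since the treatment of reads with several matches was not given in the sources used here. H2AC18 and H2AC19 had 24 and 15 reads over the 6 cultures, H4C14 and H4C15 had 49 and 10, and H3C14 and H3C15 had 2 each. The genes nearest to the filter on low counts were H1-5 (69 reads), H2BC17 (61), H2BC7 (49) and H4C14 (49) below it, and H3C2 (66), H2AC13 (75), H2BC9 (75) and H4C5 (76) above it. H1-5 had 19, 9 and 7 reads with siNC and 9, 6 and 19 with siZEB1. H1FX-AS1 had 16 reads in all.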
